A study of Ovis aries with 60 samples.

Results

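The genes described here are the enzymes and enzyme subunits of the methionine cycle, with a relative of 1 of them and the enzyme that opens the transsulfuration branch: MAT1A, MAT2A, MAT2B, AHCY, AHCYL1, MTR, MTRR, BHMT and CBS. They were chosen by name, and these 9 genes were read out of 28525 genes in a table of RNA read counts from the semen of 20 F2 rams. All 9 passed the filter on low counts, under which a gene needed 15 or more counts in over 10 libraries and which left 13577 genes for testing, so no gene of the set was lost. The rams were grandsons of Polypay twin sires. Within each F0 twin pair, 1 brother stayed on a control diet, while for his twin that diet carried rumen-protected methionine, at 0.22% or 1.5 g, between weaning and puberty. The F1 and F2 animals of both lines were kept on the control diet, so that the groups compared, 10 methionine-line and 10 control-line rams, are separated by the diet of a grandsire. Each of the 10 sires contributed 2 grandsons, so the rams of a line fall into related pairs, and p-values measure the spread between these 20 libraries, 1 per ram. Rams are numbered 1 to 10 within a line.

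Methionine adenosyltransferase joins methionine to ATP and so makes S-adenosylmethionine, the methyl donor for DNA, RNA, histone and small-molecule methylation. After the methyl group is passed on, S-adenosylhomocysteine remains, an inhibitor of methyltransferases that is split to homocysteine and adenosine. Homocysteine then either regains a methyl group from folate or betaine and becomes methionine again, or it leaves the cycle by condensing with serine to cystathionine, the first step towards cysteine and glutathione. The liver runs this cycle at a high rate with its own isoforms, whereas most other tissues rely on the MAT2A enzyme. Developing germ cells use it while DNA and histones are methylated, and sperm, which are close to silent in transcription, keep RNA left over from the spermatid stage.

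The libraries are labelled sperm, but they differed widely in the RNA of other cells, although somatic cells had been lysed before the RNA was extracted. Library totals ran from 805831 to 13137757 counts, with a median of 3436936, and the Spearman rho between a pair of libraries over the tested genes ran from 0.0772 to 0.913. Cell types were followed by lists of marker genes, each expressed as the sum of its counts per 1000000 (CPM), scaled by the trimmed mean of M-values (TMM) of edgeR. The 48 measured spermatid markers of 50 summed to between 529 and 12291 CPM, the 28 leukocyte markers of 30 to between 242 and 59102 CPM, and the 30 squamous epithelium markers of 35 to between 316 and 160593 CPM. None of these lists had its defining markers at 0: the protamine PRM1 ran from 34.8 to 1531 CPM, the leukocyte antigen PTPRC from 15.9 to 1241 CPM and the epithelial keratin KRT4 from 10.4 to 21138 CPM, whereas the basal keratin KRT5 ran from 0.404 to 8.62 CPM and the basal regulator TP63 from 2.73 to 28.5 CPM. These last 2 did not follow the sum of their list: control ram 8, with its highest sum, had 0.636 CPM of KRT5 and 8.90 of TP63, and both were highest in control ram 5, the lowest in that sum after methionine ram 7 and control ram 10. EMP1 alone gave 36.9% of the squamous epithelium sum and S100A9 alone gave 47.5% of the leukocyte sum. The leukocyte sum was also highest in control ram 8, where PTPRC was at 61.0 CPM, below its median of 94.96. Which cells gave the S100A9 reads was not tested. The 14 markers of simple epithelium summed to between 167 and 23825 CPM. They were lowest in control ram 10 and methionine ram 7 and highest in control ram 3 and control ram 8. The same held for the squamous epithelium markers. The 10 markers of testicular somatic cells summed only to between 22.1 and 51.2 CPM. Of the liver markers, 98.3% of the summed level came from SERPINA1, ALB lay between 0.210 and 10.8 CPM, and TTR and CYP2E1 were at 0 in 4 and 7 libraries. The libraries of methionine ram 7 and control ram 10 stood apart, with the highest spermatid levels (13.6 and 13.4 on the log2 scale) and squamous epithelium levels of 8.82 and 8.31 where the other 18 began at 12.6. The squamous epithelium sum was highest in control ram 8 and control ram 3, the libraries with most counts (13137757 and 12116455). Their TMM factors were 0.361 and 0.411. Control ram 10, methionine ram 7 and control ram 5, lowest in that sum, had 2708013, 1361691 and 805831 counts. Their factors were 1.65, 1.95 and 2.54. Counted totals and this marker level thus went together at the high end and less closely at the low end. Methionine ram 8, with only 1082165 counts, had a squamous epithelium level of 14.6, near the median of 14.9. These totals are reads counted to genes, not reads sequenced. The marker levels did not separate the lines: the log2 difference, methionine minus control, was 0.17 for spermatid, -0.15 for leukocyte and 0.17 for squamous epithelium markers, with p = 0.794, 0.864 and 0.869 in two-sided permutation tests of 10 against 10 libraries, all 3 adjusted to 0.869. In such mixed RNA, fewer cells of a type and less RNA per cell cannot be told apart.

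Among the adenosyltransferase genes, MAT2A, the catalytic subunit of most tissues, varied most and its line ranges overlapped. Its lowest, median and highest levels were 12.9, 267 and 1285 CPM in the 10 methionine-line libraries and 17.5, 154 and 887 CPM in the 10 control-line libraries. The low ends of both lines were methionine ram 7 and control ram 10, followed by control ram 5 at 24.8 CPM, and the high ends were methionine ram 6 and control ram 8. The line means were 425 ± 414 and 297 ± 320 CPM (SD, n = 10 each), so each SD was close to or above its mean. MAT2B, the regulatory subunit that binds the MAT2A product, ran from 15.8 through 36.6 to 112 CPM in the methionine line and from 8.52 through 29.9 to 151 CPM in the control line. Its extremes, control ram 10 and control ram 8, were both of the control line, whose range enclosed that of the methionine line. MAT1A, the catalytic subunit known from adult liver, had few reads, from 3 to 59 counts per library. It lay at 0.839, 5.60 and 10.3 CPM (lowest, median, highest) in the methionine line and at 0.606, 5.03 and 13.97 CPM in the control line. Control ram 10, which was lowest for MAT2B, was highest for MAT1A, and methionine ram 6 and control ram 3, near the top for MAT2A, held the smallest MAT1A counts, 4 and 3 reads.

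AHCY, the hydrolase that removes S-adenosylhomocysteine, spanned a range as wide as that of MAT2A. Its methionine-line libraries ran from 10.9 through a median of 531 to 925 CPM, and its control-line libraries from 14.4 through 320.8 to 1344 CPM. Methionine ram 7 and control ram 10 again held the lowest values, with 27 and 61 reads, and the next library up, control ram 2, was at 64.6 CPM. AHCYL1, a relative of AHCY known as a regulator of the inositol trisphosphate receptor rather than as a hydrolase, stayed within a narrower band. It ran from 3.31 through 10.7 to 26.4 CPM in the methionine line and from 1.89 through 9.74 to 22.2 CPM in the control line, with control ram 10 lowest and methionine ram 2 highest. The lines overlapped between 3.31 and 22.2 CPM.

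Of the remethylation genes, MTR, the cobalamin-dependent methionine synthase that takes its methyl group from folate, was highest where MAT2A and AHCY were lowest. Its levels were 14.9, 20.2 and 61.8 CPM (lowest, median, highest) in the methionine line and 8.88, 21.6 and 58.0 CPM in the control line. Here methionine ram 7 and control ram 10 were the 2 highest libraries, and the highest of the other 18, methionine ram 10, reached 38.3 CPM. MTRR, the reductase that keeps the cobalamin of methionine synthase active, ran from 2.44 through 5.70 to 13.6 CPM in the methionine line and from 3.63 through 5.89 to 13.6 CPM in the control line. Its extremes were methionine ram 5 and methionine ram 9, and methionine ram 7 and control ram 10, at 3.64 and 5.92 CPM, were inside the range of the rest. BHMT, the betaine-dependent enzyme known from liver and kidney, ran from 1.05 through 6.57 to 15.4 CPM in the methionine line and from 1.41 through 9.17 to 24.9 CPM in the control line. Control ram 10 was highest and methionine ram 6 lowest, the reverse of their order for MAT2A.

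CBS, which condenses homocysteine with serine and so commits it to transsulfuration, had the narrowest range of the 9 genes over the 20 libraries. Its levels were 2.10, 5.61 and 8.73 CPM (lowest, median, highest) in the methionine line and 2.82, 5.84 and 9.78 CPM in the control line. From the lowest to the highest of the 20 libraries, CBS spanned a 4.66-fold range, against 99.4-fold for MAT2A and 123-fold for AHCY. Without methionine ram 7 and control ram 10 the ranges of MAT2A and AHCY were 51.9-fold and 20.8-fold, that of CBS stayed at 4.66-fold, and that of MTR, at 4.31-fold, was then the narrowest.

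**Figure D1:**
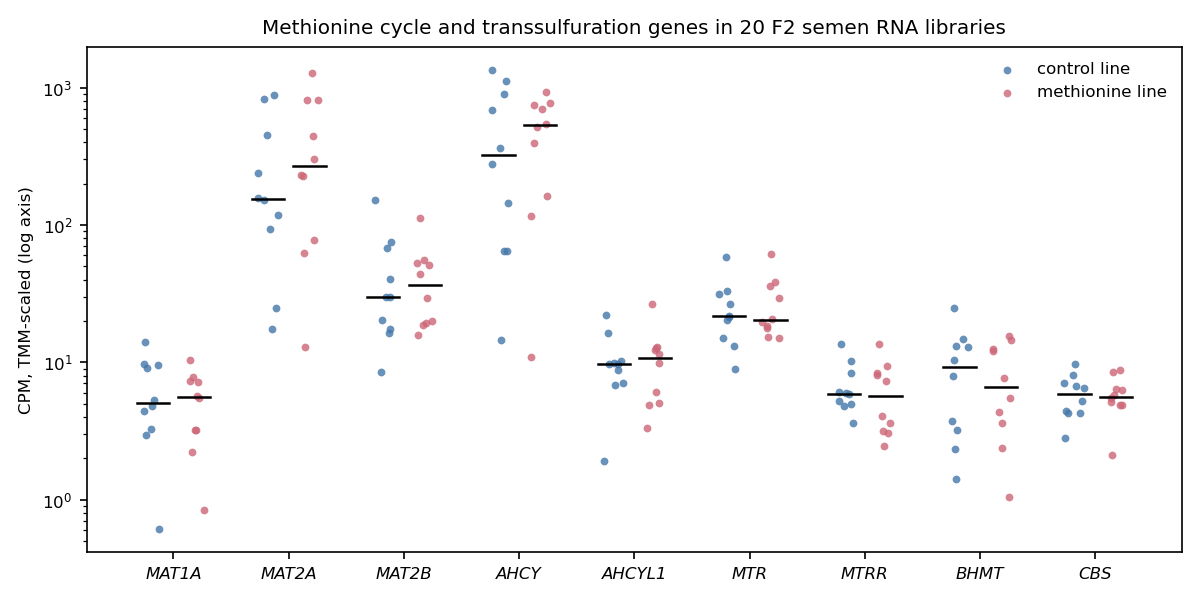
Level of each gene in the 20 F2 semen RNA libraries, in TMM-scaled CPM on a log axis, by diet line of the grandsire (blue, control; red, methionine; 10 libraries each); points are libraries, bars are medians. The lines overlap for all 9 genes, and MAT2A and AHCY spread over ranges of 99.4-fold and 123-fold while CBS spans 4.66-fold.

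Whether the grandsire's diet was reflected in these genes was asked by comparing the 10 methionine-line with the 10 control-line libraries. No gene of the set passed the test, and no gene of the whole table did. The largest difference was that of MAT2A, with a log2 fold change of 0.52 ± 0.74 (SE, methionine minus control, edgeR quasi-likelihood test, n = 10 each, 95% interval -0.99 to 2.03, adjusted p = 0.9998). Of the remethylation genes, BHMT had a log2 fold change of -0.29 ± 0.49 (SE) and MTR of 0.12 ± 0.36. MAT1A was at -0.29 ± 0.42, and the other 5 genes were between -0.14 (MTRR) and 0.05 (AHCYL1). The narrowest interval, that of CBS, ran from -0.57 to 0.53, and that of AHCY, from -1.50 to 1.45, left room for differences of more than 2-fold in either direction. Of all tested genes, 0% passed an adjusted p of 0.05, which was the background for the count of 0 of 9. The unadjusted p was under 0.05 for 104 of 13577 genes and for 0 of the 9, and DESeq2 also called 0 genes, with 174 at an unadjusted p under 0.05. In counts simulated for this comparison over 13577 genes, 0 of 200 genes changed 2-fold and 62% of 200 genes changed 4-fold were recovered. Whether these shares hold for the measured genes was not tested. The 95% intervals of MTR (-0.61 to 0.85), MTRR (-0.82 to 0.54) and AHCYL1 (-0.71 to 0.82), like that of CBS, stayed within 2-fold. Those of MAT1A, MAT2A, MAT2B, AHCY and BHMT reached past 2-fold in at least 1 direction.

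Relatedness was followed by setting the grandsons of a sire beside all pairs of libraries. For MAT2A, the 2 grandsons of a sire differed by a median of 2.36 on the log2 scale over the 10 sires, and any 2 of the 20 libraries by a median of 1.89. The corresponding values were 1.76 and 1.76 for AHCY, 1.02 and 0.69 for MTR, and 0.30 and 0.43 for CBS. Sire 9 was the grandsire of both methionine ram 7 and methionine ram 6, which held the lowest and the highest MAT2A values of the 20. The consensus correlation of grandsons of a sire over all tested genes was -0.19.

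How the genes varied with the cell content of the libraries was asked by fitting each gene's counts on the level of a marker list, together with the diet line, so that a slope is the log2 change of the gene per doubling of the markers. With the squamous epithelium level, AHCY rose most, by 0.82 ± 0.08 (SE, n = 20 libraries, adjusted p = 1.63e-08), followed by MAT2A at 0.72 ± 0.09 (adjusted p = 1.01e-06). The regulatory subunit gene MAT2B also rose, by 0.36 ± 0.07 (adjusted p = 0.000122), and AHCYL1 by 0.24 ± 0.08 (adjusted p = 0.00899). Of the remethylation genes, 2 of 3 fell: BHMT was at -0.38 ± 0.08 (adjusted p = 0.000242) and MTR at -0.27 ± 0.04 (adjusted p = 1.12e-05). MAT1A, at -0.29 ± 0.08 (adjusted p = 0.00223), fell with them, opposite to MAT2A. MTRR (0.05 ± 0.07) and CBS (-0.06 ± 0.06) did not pass the test. Thus 4 of 9 genes rose and 3 fell. Over all tested genes 64.7% passed, 32.9% higher and 31.8% lower, so a call by itself does not set these genes apart. The median size of a slope was 0.29 for the 9 genes and 0.23 for all genes. Slopes depend on the scaling of the libraries: with library totals alone in place of TMM the median slope of all genes moved by -0.25, and the share of calls that were higher went from 50.9% to 24.9%. Under that scaling, with 51.9% of all genes called, MAT2B (0.11) and AHCYL1 (0.04) no longer passed, MTRR turned to -0.16 without passing, and the other 6 genes kept their direction, with AHCY at 0.77, MAT2A at 0.58, MTR and BHMT at -0.57 and -0.56, MAT1A at -0.48 and CBS, still not called, at -0.29.

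**Figure D2:**
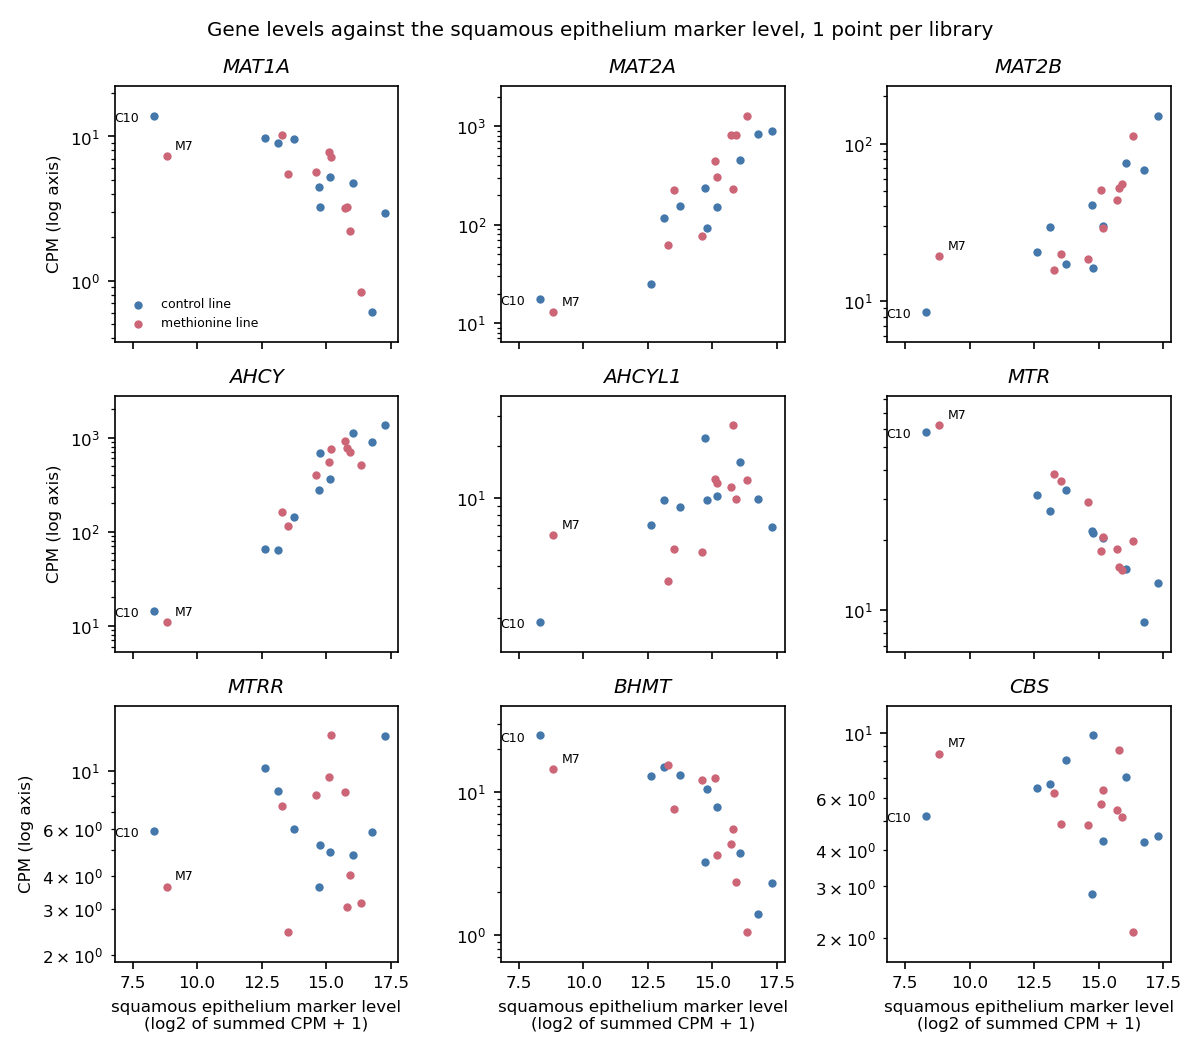
Level of each gene (vertical, CPM, log axis) against the squamous epithelium marker level of the library (horizontal, log2 of the summed CPM plus 1), 1 point per library, 20 in each panel, coloured by diet line, with methionine ram 7 (M7) and control ram 10 (C10) marked. AHCY and MAT2A climb from 10.9 and 12.9 CPM to 1344 and 1285, MTR and BHMT descend, and CBS and MTRR show no course that passed the test.

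The directions of these 7 genes held without the 2 libraries that stood apart. Without methionine ram 7 and control ram 10 the squamous epithelium slopes were larger in size for 6 of the 7 genes called before: AHCY 0.97, MAT2A 0.93, MAT2B 0.62, BHMT -0.75, MAT1A -0.59 and MTR -0.40. Larger slopes were general: the median size went from 0.23 to 0.39 for all genes and from 0.29 to 0.59 for the 9 genes. AHCYL1 stayed at 0.24 but with a standard error of 0.15 and an adjusted p of 0.155, so 3 genes passed as higher and 3 as lower, against 60.2% of all genes, 29.6% higher and 30.6% lower. The slopes did not differ detectably between the diet lines: for MAT2A the difference of slopes, methionine minus control, was 0.18 ± 0.15 (SE), for AHCY 0.09 ± 0.13, and 0% of all genes passed the interaction test of edgeR (2.36% had an unadjusted p under 0.05).

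With the leukocyte markers the same 4 genes rose and the same 3 fell, against 67.4% of all genes called, 36.4% higher and 31% lower. AHCY was at 0.89 ± 0.13 (SE, n = 20), MAT2A at 0.78 ± 0.13, MAT2B at 0.40 ± 0.08, AHCYL1 at 0.28 ± 0.08, BHMT at -0.39 ± 0.09, MAT1A at -0.29 ± 0.09 and MTR at -0.28 ± 0.05. Without methionine ram 7 and control ram 10, AHCYL1 (0.30 ± 0.14, adjusted p = 0.077) lost its call, CBS was at -0.26 ± 0.12 (adjusted p = 0.062), and 3 higher and 3 lower genes were called, against 61.3% of all genes, 33.4% higher and 27.9% lower. Leukocyte and squamous epithelium levels were lowest in the same 2 libraries, and both lists were fitted together, a fit chosen after the data had been seen. Then the leukocyte level carried no call among the 9 genes in edgeR (0 of 9, with 0 at an unadjusted p under 0.05, and 11.3% of all genes called, 10.4% higher and 0.913% lower), and its slope for AHCY was -0.23 ± 0.23. The squamous epithelium level kept 1 call, AHCY at 1.01 ± 0.23 (adjusted p = 0.00356), against 18% of all genes, 9.96% higher and 8.07% lower, while MAT2A, at 0.76 ± 0.28, missed the threshold with an adjusted p of 0.0601. Without passing, BHMT (-0.45), MAT1A (-0.34), MTR (-0.31) and MAT2B (0.30) had squamous epithelium slopes near those of the single list, AHCYL1 was at 0.021, and 3 of 9 genes had an unadjusted p under 0.05. The leukocyte calls also depended on other choices. With the mean of the log2 CPM of the leukocyte markers in place of their sum, edgeR called 0 of 9 genes (1 at an unadjusted p under 0.05, 25.3% of all genes called), and the slopes of AHCY (0.20) and MAT2A (0.19) were smaller. With counts summed per sire, which leaves 10 libraries, it called 0 of 9 for the leukocyte markers (4 at an unadjusted p under 0.05, 0% of all genes called) and 6 of 9 for the squamous epithelium markers (27.5% of all genes called). These leukocyte slopes per sire were larger than over the 20 libraries for 6 of the 7 genes, among them AHCY at 1.70, MAT2A at 1.66, MAT1A at -1.09 and BHMT at -0.996, and AHCYL1 was at 0.067. Library totals alone left 3 leukocyte calls of 9, AHCY at 0.80, MAT2A at 0.59 and MTR at -0.51, against 43.9% of all genes. MAT2B and AHCYL1 lost their calls. BHMT (-0.46, adjusted p = 0.0693) and MAT1A (-0.40, adjusted p = 0.0962) had larger slopes than with TMM but also missed the threshold.

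Against the spermatid markers the signs of the 7 genes were opposite. MTR rose by 0.38 ± 0.08 (SE, n = 20, adjusted p = 0.00037), BHMT by 0.48 ± 0.14 (adjusted p = 0.00591) and MAT1A by 0.30 ± 0.13 (adjusted p = 0.0481). MAT2B fell with a slope of -0.56 ± 0.13 (adjusted p = 0.00115), beside AHCYL1 at -0.41 ± 0.11, AHCY at -0.87 ± 0.26 and MAT2A at -0.70 ± 0.26. These 3 genes that rose and 4 that fell stood against 56% of all genes called, 24.4% higher and 31.5% lower. Here methionine ram 7 and control ram 10 mattered: without them 2 of 9 genes passed, MTR at 0.31 ± 0.10 (adjusted p = 0.0329) and MAT2B at -0.54 ± 0.16 (adjusted p = 0.0148), against 26.3% of all genes, 15.7% higher and 10.6% lower. BHMT (0.48 ± 0.19, adjusted p = 0.0636), AHCYL1 (-0.35 ± 0.13, adjusted p = 0.0502), AHCY (-0.55 ± 0.25, adjusted p = 0.0963), MAT2A (-0.45 ± 0.26, adjusted p = 0.184) and MAT1A (0.29 ± 0.17, adjusted p = 0.19) then missed the threshold. With library totals alone the median spermatid slope of all genes moved by 0.33 and the higher share of calls from 43.7% to 85.9%, with 66.7% of all genes called; MTR (0.60), BHMT (0.74), MAT1A (0.60), AHCY (-0.43) and MAT2A (-0.33) kept their direction and their call, MAT2B (-0.096) lost its call, AHCYL1 turned to 0.012, and MTRR (0.28, adjusted p = 0.0313, turned in sign) and CBS (0.41, adjusted p = 0.000358) passed as higher. With counts summed per sire, edgeR called 0 of 9 genes for the spermatid markers (2 at an unadjusted p under 0.05, 10.3% of all genes called). Of these slopes AHCY (-0.78), AHCYL1 (-0.45) and MTR (0.40) were close to their values over the 20 libraries, and MAT2B (-0.25), MAT2A (-0.18), BHMT (0.16) and MAT1A (0.14) were smaller. MAT1A and BHMT were low throughout, with medians of 5.40 and 7.78 CPM. Between methionine ram 7 and control ram 3 some liver transcripts of low level differed in the same direction. ALB and FGA were at 6.06 and 9.29 CPM in methionine ram 7 and at 0.606 and 0.202 CPM in control ram 3. APOB, FGB and TAT were also higher in methionine ram 7 (59.4, 3.23 and 6.47 CPM) than in control ram 3 (2.42, 0.606 and 1.41 CPM). SERPINA1 went the other way (15.8 and 6876 CPM), and TTR and CYP2E1 were at 0 in methionine ram 7. ALB and FGA differed less between control ram 10 (4.50 and 5.92 CPM) and control ram 8 (3.18 and 4.24 CPM). They were highest in control ram 5 (10.8 and 12.4 CPM), whereas MAT1A and BHMT were highest in control ram 10. Whether these low values share a source with those of MAT1A and BHMT was not tested. Which cells held the transcripts was not tested, since all 3 lists were measured in the same mixed RNA.

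**Figure D3:**
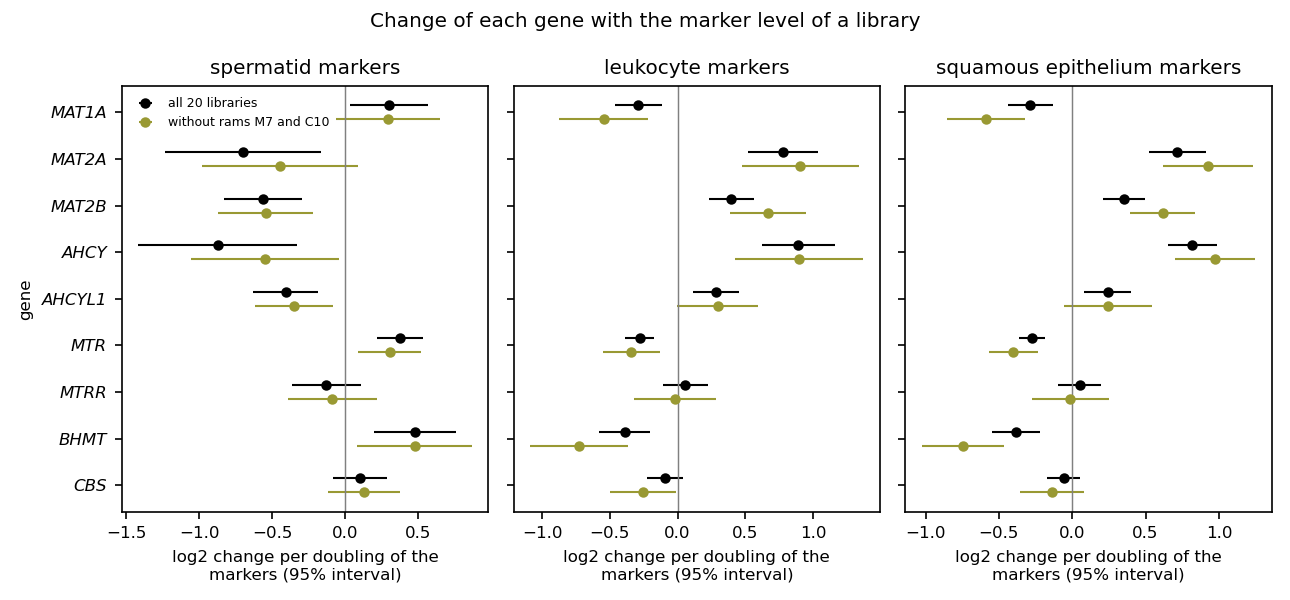
Slope of each gene (log2 change per doubling of the marker list, with its 95% interval) for the spermatid, leukocyte and squamous epithelium markers, fitted over all 20 libraries (black) and without methionine ram 7 (M7) and control ram 10 (C10) (olive). AHCY, MAT2A and MAT2B lie to the right for leukocyte and squamous epithelium markers and to the left for spermatid markers, MTR, BHMT and MAT1A lie on the opposite sides, and MTRR and CBS, which passed for no list in either fit, lie closer to 0, with CBS reaching -0.26 for the leukocyte markers without those libraries.

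Ratios of reads within a library do not depend on its scaling. Each ratio here was taken after 0.5 had been added to both counts, which matters where a count is small. The ratio of MAT2A to MAT2B counts, neither corrected for length, had a median of 5.86 and ran from 0.670 in methionine ram 7 to 18.3 in methionine ram 4; without methionine ram 7 the lowest was 1.21. The 2 genes ranked alike over the 20 libraries (Spearman rho 0.87, a description), so the ratio shows that their ranges were unequal. That of AHCY to MTR counts ran from 0.179 in methionine ram 7 to 101 in control ram 8, with a median of 21.5, and without methionine ram 7 and control ram 10 the lowest was 2.06. AHCY to AHCYL1 ran from 1.77 in methionine ram 7 to 195 in control ram 8. Without methionine ram 7 and control ram 10 the lowest was 6.60 and the highest was still that of control ram 8. The next highest was 90.5 in control ram 3. The ratio of BHMT to MTR, the betaine and the folate routes of remethylation, moved less, from 0.0582 in methionine ram 6 (0.156 in the next library) to 0.701 in methionine ram 3. The widest range was that of MAT2A to MAT1A, from 1.25 in control ram 10 to 1362 in methionine ram 6, with few MAT1A reads at the high end; without methionine ram 7 and control ram 10 the lowest was 2.51. On the log2 scale the lines differed in this ratio by 0.71, with means of 5.65 ± 2.84 and 4.94 ± 2.94 (SD, n = 10 each), and in the MAT2A to MAT2B ratio by 0.46, with means of 2.71 ± 1.40 and 2.26 ± 0.97, and each difference was smaller than either SD.

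Within the set, MAT1A ranked with BHMT over the 20 libraries (Spearman rho 0.90), and AHCY against MTR (-0.89) and MAT2A against BHMT (-0.88). For MAT2A the 3 closest of the tested genes by Spearman rho of log2 CPM were FBXO33, SPAG9 and BMPR2 (0.98 each). AHCY lay closest to LOC114116872, PLAGL1 and EPHX3 (0.97, 0.97 and 0.96), and MAT2B to DERL2, SERINC1 and CSTA (0.97, 0.96 and 0.96), of which CSTA is itself on the squamous epithelium list. MAT1A ranked with LOC101118120, USH1C and BOC (0.98, 0.97 and 0.96), BHMT with LOC101113745, LOC105605755 and ADAM12 (0.96, 0.96 and 0.95), and MTR with TMBIM7P, TTBK2 and PRDM10 (0.94, 0.93 and 0.93). Lower values were found for AHCYL1 (MAP3K8 0.90, MRPL49 0.86, SUSD1 0.84), MTRR (FKBP9 0.78, LOC114116075 0.77, SEMA6A 0.75) and CBS (TEF 0.74, LOC101117299 0.74, KIAA1522 0.73). These are descriptions over libraries that share the composition described above, and they carry no test.

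The genes around the cycle were followed through a list of 83 that feed it or draw on it: folate, choline and betaine, methionine salvage and uptake, cobalamin handling, cysteine and glutathione synthesis, and small-molecule methylation. Of these, 1 had no row (MTHFS), 21 were below the count filter and 61 were tested. Between the diet lines 0 of 61 were called. CTH, which splits the CBS product to cysteine, had a log2 fold change of 0.0026 between the lines, and METTL16, which methylates the MAT2A transcript and controls its splicing and stability, one of 0.51 without passing (adjusted p = 0.9998). Larger differences, also without passing, were those of MSRA (-1.29), APIP (0.66), MSRB2 (-0.53) and SLC25A26 (-0.53), given here after their values were seen. GNMT, the glycine methyltransferase that uses up surplus S-adenosylmethionine in liver, and the BHMT paralog BHMT2 were below the filter, with medians of 2.12 and 3.35 CPM.

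With the squamous epithelium level, 18 of the 61 genes rose, 17 fell and 26 did not pass, so 57.4% were called against the 64.7% of all genes. Over the 20 libraries the largest slopes upwards were those of ADA, adenosine deaminase, which removes the adenosine that AHCY releases (1.03 ± 0.13, SE, n = 20), the amino acid transporter SLC38A2 (0.85 ± 0.09) and GCLC, the catalytic subunit of the enzyme that starts glutathione synthesis (0.79 ± 0.10). The steepest downwards were GSS, which completes glutathione (-0.39 ± 0.10), the methionine sulfoxide reductase MSRB3 (-0.38 ± 0.07) and SLC25A26, the mitochondrial S-adenosylmethionine carrier (-0.36 ± 0.06). All 6 kept direction and call without methionine ram 7 and control ram 10 and under library totals alone. Without those 2 libraries, however, the largest were CTH at 0.96, GGH at 0.93 and SLC38A2 at 0.92. ADA was then at 0.85 and GCLC at 0.68, with other called genes of the list between them. Over the 20 libraries CTH rose by 0.62 ± 0.09, unlike CBS, which precedes it in the pathway, and AHCYL2 fell with a slope of -0.18 ± 0.06 where its relative AHCYL1 rose. Without methionine ram 7 and control ram 10, AHCYL2 kept its call (-0.31 ± 0.11, adjusted p = 0.0165) and AHCYL1 did not (0.24 ± 0.15, adjusted p = 0.155). METTL16 did not pass (-0.09 ± 0.06) over the 20 libraries, but it did without methionine ram 7 and control ram 10 (-0.26 ± 0.11, adjusted p = 0.044). In the folate group 8 of 17 tested genes fell, 2 rose (the folate hydrolase GGH at 0.68 ± 0.09 and the glycine cleavage gene AMT at 0.18 ± 0.08, named after their values were seen) and 7 did not pass, beside 31.8% lower and 32.9% higher of all genes. AMT was at -0.0052 (adjusted p = 0.977) without methionine ram 7 and control ram 10, and at 0.016 (adjusted p = 0.935) with library totals alone. Under that scaling the list as a whole had 7 genes higher and 20 lower, 44.3% called, against 51.9% of all genes, 12.9% higher and 39% lower.

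For the leukocyte markers 20 of the 61 genes rose and 15 fell (57.4% called, against 67.4% of all genes), and for the spermatid markers 12 rose and 18 fell (49.2%, against 56%). The named genes were largely shared. ADA, SLC38A2 and GCLC had the largest leukocyte slopes (1.13, 0.93 and 0.86) and GSS, MSRB3 and SLC25A26 the lowest (-0.50, -0.42 and -0.41). For the spermatid markers GSS, SLC25A26 and MSRB3 led upwards (0.81, 0.68 and 0.65), and ADA, SLC38A2 and SLC44A2, a choline transporter-like protein, downwards (-1.11, -0.85 and -0.80). With library totals alone the last 3 still passed, at -0.55, -0.39 and -0.27. CTH did not pass for the spermatid markers (-0.56 ± 0.25, adjusted p = 0.0586). Library totals alone left 34 of the 61 higher and 6 lower for the spermatid markers, against 57.3% and 9.41% of all genes, and 7 higher and 13 lower for the leukocyte markers, against 14.4% and 29.5% of all genes.

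**Figure D4:**
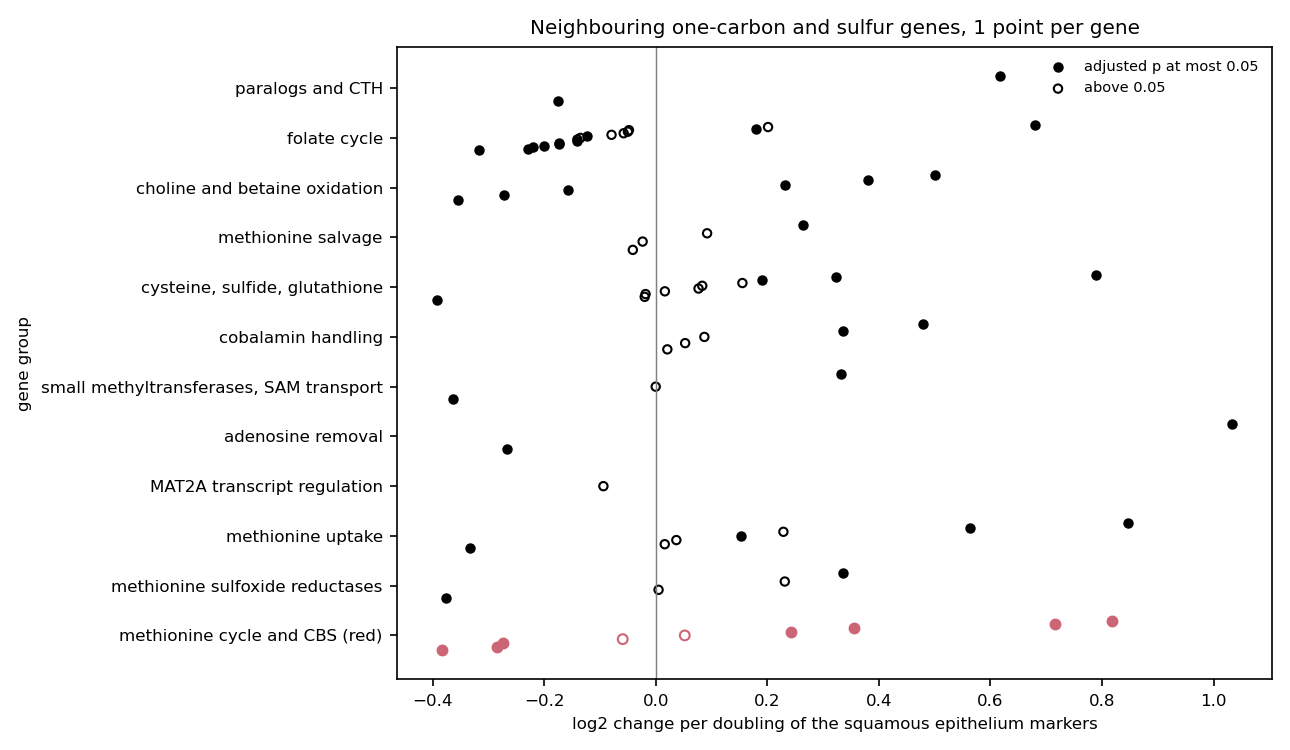
Slope on the squamous epithelium marker level (log2 change per doubling) for the 61 tested genes around the cycle, by group, with the 9 genes of the cycle and CBS in red; filled points passed an adjusted p of 0.05, and 1 point is 1 gene. Genes on both sides of 0 occur in most groups, from GSS at -0.39 to ADA at 1.03.

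Some counts are less certain than their errors show. In the RefSeq annotation of a later sheep assembly, in which all 9 symbols were found, MAT1A overlaps DYDC1, and AHCYL1 and BHMT each overlap a long non-coding RNA gene, and which strand was counted is not given in the sources used here. AHCYL1 and AHCYL2, and BHMT and BHMT2, are paralogs, so reads that match both genes of a pair may have been lost or misassigned. MAT1A, MTRR, BHMT, CBS and AHCYL1 had medians of 17.5, 21.5, 23.5, 21 and 41 counts per library, against 958.5 for MAT2A and 1078 for AHCY.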

How the data were processed

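Semen was collected by electroejaculation, somatic cells were lysed, and RNA was sequenced by the study in 20 F2 rams. The authors trimmed reads with Trimmomatic and aligned and counted them per gene with STAR on the Oar_rambouillet genome assembly; the deposited values are raw read counts, not normalised. The annotation release, the versions of both tools and the counted strand are not given in the sources used here. Groups came from the sample labels, and sires from the bisulfite sample of the same ram. The deposited methylation files were not used here, since no annotation of their assembly was at hand.

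A gene was kept if over 10 libraries each held 15 counts or more (13577 of 28525). Counts were scaled by TMM and tested in edgeR 4.0.16 (R 4.3.3) by the quasi-likelihood F test with Benjamini-Hochberg adjustment over all tested genes (threshold 0.05). CPM used tested-gene totals times TMM factors (0.361 to 2.54). Marker levels were the log2 of the summed CPM plus 1, centred, fitted with the diet line. Marker levels between lines were compared by permutation with 100000 resamples (SciPy 1.17.1). Intervals of slopes are 95%. Alternatives were DESeq2 1.42.0, limma-voom (limma 3.58.1), other scalings and filters, counts summed per sire, sire as a random block, and other forms of the marker level. Precision for the less abundant genes is limited by totals of 805831 to 13137757 counts. On simulated counts over 13577 genes the squamous epithelium fit recovered 95% of 200 slopes of 0.5 and 17% of 200 slopes of 0.25. Only 200 genes were changed, whereas 64.7% of all genes passed in the data, so these shares need not hold there.

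The genes of the set and all gene lists were chosen with earlier results of these data known. All 9 genes were named; with them the 3 tested genes of highest Spearman rho to each (log2 CPM, prior count 2), and, from the pathway list, those called between the lines, the 3 of largest slope per direction and marker list, and CTH, BHMT2, AHCYL2, METTL16 and GNMT. Another gene named by this rule is not reported here.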

Additional observations from a re-analysis of the deposited data

Results flagged for a closer look

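Of 18 gene and line combinations, each of 10 libraries, 3 held a library whose gap to its neighbour, as a share of the whole range on the log2 CPM scale, was above Dixon's 95% critical value for 10 samples; chance alone gives about 1 in 20. AHCY in methionine ram 7 (10.9 CPM, 27 counts) lay below the other 9 libraries of its line by a gap of 0.527 of the range, and methionine ram 7 also had the lowest squamous epithelium level of that line. AHCYL1 in control ram 10 (1.89 CPM, 8 counts) was low by a gap of 0.495, and this library had the lowest squamous epithelium level of all. CBS in methionine ram 6 (2.10 CPM, 10 counts) was low by a gap of 0.571; this library had the highest squamous epithelium level of its line (16.3 on the log2 scale). The part of the marker levels in these 3 values was not tested.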

How the results depend on the processing

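Between the diet lines, 0 genes were called under every alternative run (DESeq2, limma-voom, RLE size factors, library totals alone, no filter, filterByExpr, counts summed per sire, sire as a random block, either set of marker levels as covariate, and without methionine ram 7 and control ram 10). Signs that turned were all of uncalled values: AHCYL1 to -0.0060 (DESeq2), -0.0094 (RLE), -0.16 (library totals) and -0.018 (without methionine ram 7 and control ram 10); MAT2B to 0.052 (limma-voom), 0.060 (sire block), 0.056 (leukocyte and squamous levels) and 0.14 (spermatid level); AHCY to 0.23 (limma-voom), 0.24 (library totals), 0.17 (per sire), 0.26 (sire block), 0.38 (spermatid level) and 0.080 (leukocyte and squamous levels); MTR to -0.012 (library totals) and CBS to 0.0038 (per sire).

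Of the 7 genes called with the spermatid markers, 2 passed without methionine ram 7 and control ram 10, 0 per sire and 4 with no filter; of the 7 with the leukocyte markers, 3 passed with library totals, 0 per sire, 0 with the mean log2 level and 0 with both lists fitted together; of the 7 with the squamous epithelium markers, 5 to 7 passed in 9 alternatives and 1 with both lists together. Summing per sire leaves 10 libraries. The cause of the other losses was not tested. Slopes that changed sign were, with library totals, AHCYL1 (0.012) and MTRR (0.28, adjusted p = 0.0313) for spermatid, and MTRR for leukocyte (-0.12) and squamous markers (-0.16); without methionine ram 7 and control ram 10, MTRR for leukocyte (-0.018) and squamous markers (-0.012); per sire, CBS for spermatid (-0.29), MTRR for leukocyte (-0.54) and squamous (-0.083) and CBS for squamous markers (0.015); with the mean log2 level, MTRR for leukocyte markers (-0.019); with no filter, CBS for squamous markers (0.0034). With both lists together the leukocyte slopes of MAT1A (0.065), MAT2A (-0.049), AHCY (-0.23), MTR (0.042) and BHMT (0.086) and the squamous slope of CBS (0.22) turned, all uncalled. With library totals the leukocyte median of all genes moved by -0.23 and the higher share of calls from 54.0% to 32.8%. Every squamous epithelium slope of AHCY stayed past the threshold, from 0.77 to 1.59. No paired analysis was possible because the labels give no shared replicate numbers and do not say which rams' grandsires were twins. Methylation over the genes was not run.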
